A study of Rattus norvegicus with 16 samples.

Results

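The MHC class II pathway genes described here are 10 of the 21021 genes listed in each expression table, chosen by symbol alone. They are the 4 chains of the classical class II molecules (RT1-Ba and RT1-Bb of RT1-B, RT1-Da and RT1-Db1 of RT1-D), the invariant chain Cd74, both chains of the peptide editor RT1-DM (RT1-DMa, RT1-DMb), both chains of its modulator RT1-DO (RT1-DOa, RT1-DOb) and the transactivator Ciita. RNA was sequenced from the L3-L5 dorsal root ganglia (DRG) of adult female Sprague-Dawley rats, with the ganglia of the injected side of 1 rat forming 1 sample. Walker 256 cells, a rat mammary gland carcinoma line, were placed in the left tibia (tumor cell implantation, TCI), and DRG were taken on day 1, day 7 or day 14. Sham rats are labelled as having received PBS in the left tibia, whereas the study's methods describe boiled tumor cells, and their DRG were taken on day 14. There were 4 samples in each of the 4 groups, 16 in all. Because sham DRG came from day 14 alone, the effect of TCI on day 1 or day 7 cannot be told apart from that of the time since injection.

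MHC class II molecules present peptides from endosomes to CD4+ T cells, and they are made mainly by macrophages, dendritic cells and B cells, with other cells making them under interferon gamma. The α and β chains assemble in the endoplasmic reticulum with the invariant chain, which blocks the groove and directs the complex to endosomes. Proteases there degrade the invariant chain to a fragment called CLIP, DM exchanges CLIP for peptides, and DO restrains DM. The genes share promoter elements bound by the RFX, CREB and NF-Y factors, to which the coactivator CIITA is recruited. A DRG holds the cell bodies of sensory neurons with satellite glia, Schwann cells, vessels and resident macrophages, and their RNA is measured together here. In such RNA, fewer cells of a type and less RNA per cell cannot be told apart.

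Expression was given as FPKM (fragments per kilobase of transcript, relative to all mapped fragments), a unit that allows levels to be compared between genes. The tables hold no read totals, so the depth behind each value is unknown. The summed FPKM ranged from 436572 to 473959 per sample. Relative depth, estimated from the lowest values of 761 genes, ranged from 0.982 to 1.03 times the median, a range that this estimate understates. Markers of sensory neurons (8 genes) summed to between 5333 and 9571 FPKM and those of glia (6 genes) to between 4396 and 15802 FPKM, so the DRG label fits the markers in each sample. The study left TCI day 1 replicate 2 and TCI day 7 replicate 3 out of its statistics because of low correlation with the rest, and the tests below used the other 14 samples, with counts from all 16 given beside the main counts. TCI day 7 replicate 3 held 17725 FPKM in 7 skeletal muscle markers and sham replicate 4 held 416, against 8.67 to 19.0 in the other samples.

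The class II genes did not differ detectably from sham on day 1 after TCI, and most of them were about 10-fold higher or more on days 7 and 14. On day 7, 6 of the 10 genes passed both cut-offs of the study (an absolute log2 fold change of 1 or more with an adjusted p no larger than 0.001), all of them higher than sham, where 1.83% of the 14023 genes tested did so. On day 14, 8 of 10 were higher, against 0.642% of the genes tested. With all 16 samples, 8 of 10 were higher on either day. The count on day 7 was 3 without TCI day 7 replicate 1, that on day 14 was 4 without sham replicate 1 or sham replicate 2, and 1 gene was called on day 14 when only the sham and day 14 samples entered the fit. The 10 genes together took between 0.0123 and 0.0303% of the summed FPKM in sham samples and between 0.0155 and 0.0235% on day 1. Their share was between 0.122 and 0.268% on day 7 and between 0.185 and 0.489% on day 14. Groups were compared in limma, with 1 linear model on log2(FPKM + 1) over all 4 groups and Benjamini-Hochberg adjustment over the genes tested, which understates the change of genes at a few FPKM or less. The study used a different test and reported many more genes higher at these cut-offs on days 7 and 14. A gene that missed the cut-offs here may have passed them there. Of the 10 genes, RT1-DMa, RT1-DOa, RT1-DOb and Ciita reached the filter of 1 FPKM in at least 3 samples only through day 7 and day 14 samples, so their counts lean toward higher values by selection.

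Cd74, the invariant chain, was the most highly expressed of these genes in every sample. Its level was 42.0, 26.1, 71.1 and 40.5 FPKM in the sham samples and 34.1, 44.6, 45.8 and 58.4 FPKM on TCI day 1, the second of which is the left-out sample. It was 615, 428, 438 and 307 FPKM on day 7, the third being the left-out sample, and 556, 1241, 454 and 523 FPKM on day 14. Every day 7 and day 14 sample was thus above every sham and day 1 sample, while day 14 overlapped day 7. Over the 16 samples, 8 of the 10 genes separated day 7 from sham in this way, as did 18.2% of 14087 genes, and 9 separated day 14 from sham, as did 13.8%. None separated day 14 from day 7, as did 2.15%. For Cd74 the ratio of mean FPKM to sham was 10.02 on day 7 and 15.4 on day 14 over the 14 samples. The difference of log2(FPKM + 1) from sham was 3.33 ± 0.37 (SE) on day 7 (adjusted p = 0.000135) and 3.88 ± 0.35 on day 14 (adjusted p = 8.43e-05). Ranked by FPKM among the 21021 genes, Cd74 moved from places 1187 to 3268 in sham to places 61 to 211 on day 7 and 25 to 118 on day 14.

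Among the classical chains, RT1-Da, the α chain of RT1-D, was the highest. Its values were 13.5, 8.71, 23.1 and 14.4 FPKM in sham, 12.7, 13.9, 14.7 and 19.2 FPKM on day 1, 246, 149, 169 and 108 FPKM on day 7, and 199, 399, 163 and 190 FPKM on day 14. RT1-Db1, its β chain, was at 12.6, 10.2, 16.9 and 8.55 FPKM in sham, 11.6, 7.27, 8.04 and 9.09 FPKM on day 1, 151, 59.8, 100.4 and 63.3 FPKM on day 7, and 104, 182, 106 and 108 FPKM on day 14. Both chains separated the same samples, with no overlap between the sham and day 1 samples on one side and the day 7 and day 14 samples on the other. RT1-Da was higher than sham by 3.40 ± 0.35 (SE, log2) on day 7 (adjusted p = 9.14e-05) and by 3.89 ± 0.33 on day 14 (adjusted p = 8.43e-05). RT1-Db1 was higher by 2.73 ± 0.31 on day 7 (adjusted p = 0.000144) and by 3.27 ± 0.29 on day 14 (adjusted p = 8.43e-05).

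RT1-Ba, the α chain of RT1-B, was measured at 5.52, 3.74, 9.73 and 6.91 FPKM in sham and at 4.07, 7.54, 6.83 and 9.82 FPKM on day 1. It stood at 78.5, 78.0, 63.6 and 37.4 FPKM on day 7 and at 75.2, 207, 63.5 and 80.3 FPKM on day 14. RT1-Bb, the β chain, was at 3.59, 1.86, 5.95 and 3.50 FPKM in sham, 2.89, 2.88, 3.23 and 3.57 FPKM on day 1, 66.4, 38.8, 51.2 and 28.5 FPKM on day 7, and 51.8, 108, 39.8 and 50.04 FPKM on day 14. The lowest day 7 sample of either chain was above the highest sham sample. The log2 difference of RT1-Ba from sham was 3.12 ± 0.42 (SE) on day 7 (adjusted p = 0.000323) and 3.74 ± 0.38 on day 14 (adjusted p = 0.000183), and that of RT1-Bb was 3.25 ± 0.35 (adjusted p = 0.000111) and 3.71 ± 0.33 (adjusted p = 8.43e-05). All 4 classical chains therefore passed the cut-offs on both days. Class II genes vary between rat strains and the build used for mapping is not stated, so how well each allele of these outbred rats was counted was not tested.

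**Figure D1:**
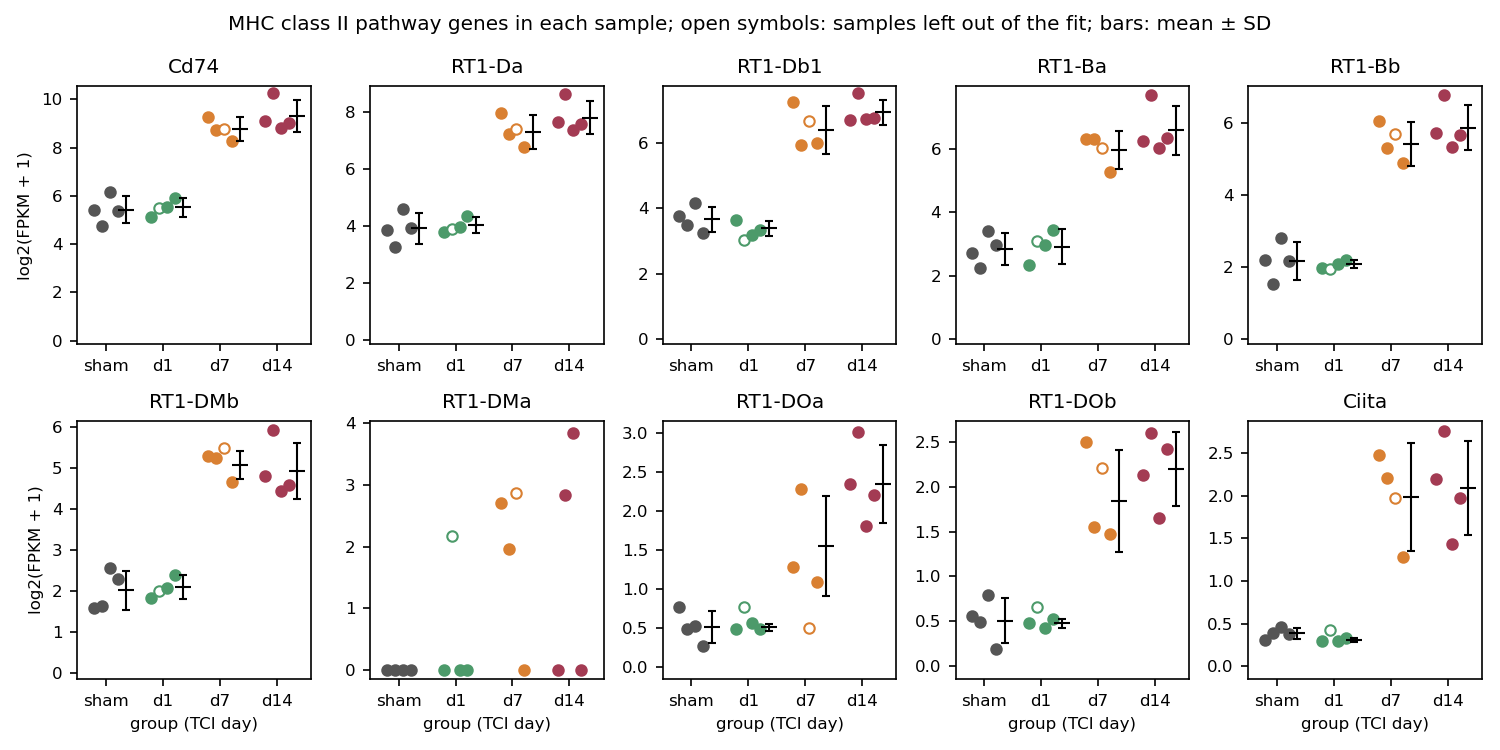
Each panel plots 1 gene as log2(FPKM + 1) in the 16 samples, with groups along the x axis (d1, d7 and d14 are days after TCI); filled points are the 14 samples of the fit, open points the 2 left-out samples, and bars the mean ± SD of the filled points, not drawn for RT1-DMa. For 8 of the 10 genes every day 7 sample lies above every sham sample, and TCI day 14 replicate 2 is the highest of all samples for 9 of the 10.

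The 2 chains of the peptide editor DM were measured very differently. RT1-DMb, the β chain, was at 2.01, 2.10, 4.89 and 3.87 FPKM in sham, 2.53, 2.97, 3.23 and 4.27 FPKM on day 1, 38.0, 37.2, 44.2 and 24.4 FPKM on day 7, and 26.8, 60.1, 20.6 and 23.0 FPKM on day 14. It rose by 3.05 ± 0.34 (SE, log2) on day 7 (adjusted p = 0.000116) and by 2.92 ± 0.31 on day 14 (adjusted p = 0.000226), with no overlap with sham on either day. RT1-DMa, the α chain, was listed at 0 in all 4 sham samples. On day 1 it was listed at 0 in 3 samples and at 3.50 FPKM in the left-out one. Its values were 5.54, 2.90, 6.28 and 0 FPKM on day 7 and 0, 6.15, 13.4 and 0 FPKM on day 14, so that samples with and without a value stood side by side within a group. Rfxap, a subunit of the RFX complex, switched in the same manner between 0 and 3.12 to 7.71 FPKM, and was listed at 0 in 5 of the 16 samples. A value of 0 of this kind can be a failed estimate, and no fold change is given for either gene. RT1-DMa was not called on day 7 (adjusted p = 0.232) or day 14 (adjusted p = 0.170).

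The chains of DO, the modulator of DM, were low throughout and passed the cut-offs on day 14 but not on day 7 in the 14 samples. RT1-DOa, the α chain, was at 0.71, 0.41, 0.45 and 0.21 FPKM in sham, 0.40, 0.71, 0.48 and 0.41 FPKM on day 1, 1.43, 3.87, 0.42 and 1.14 FPKM on day 7, and 4.09, 7.12, 2.51 and 3.64 FPKM on day 14. The day 7 value of 0.42 FPKM was that of the left-out replicate 3, which lay within the sham range, whereas all day 14 samples lay above it. RT1-DOb, the β chain, was at 0.47, 0.40, 0.73 and 0.14 FPKM in sham, 0.39, 0.58, 0.34 and 0.44 FPKM on day 1, 4.67, 1.93, 3.62 and 1.77 FPKM on day 7, and 3.39, 5.07, 2.14 and 4.37 FPKM on day 14. Its day 7 and day 14 samples did not overlap with sham. On day 14 RT1-DOa had a log2 difference of 1.83 ± 0.26 (SE, adjusted p = 0.000988) and RT1-DOb one of 1.70 ± 0.24 (adjusted p = 0.000821). On day 7 the differences were 1.03 ± 0.28 (adjusted p = 0.0230) for RT1-DOa and 1.34 ± 0.26 (adjusted p = 0.00322) for RT1-DOb. The 2 calls on day 14 lie just inside the limit of 0.001, and over the alternative analyses the adjusted p ranged from 0.00011 to 0.00609 for RT1-DOa and from 9.35e-05 to 0.00539 for RT1-DOb. On day 7 it ranged from 0.00123 to 0.104 for RT1-DOa and from 1.71e-05 to 0.0136 for RT1-DOb. With all 16 samples RT1-DOb passed on day 7 (1.43, adjusted p = 0.00063) and RT1-DOa did not pass on day 14 (adjusted p = 0.00175).

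Ciita, the coactivator on which class II transcription depends, was expressed at no more than 0.38 FPKM in any sham or day 1 sample. Its level was 0.24, 0.31, 0.38 and 0.30 FPKM in sham, 0.23, 0.34, 0.23 and 0.26 FPKM on day 1, 4.56, 3.63, 2.93 and 1.42 FPKM on day 7, and 3.57, 5.74, 1.69 and 2.92 FPKM on day 14. No day 7 or day 14 sample overlapped with sham, and the ratio of mean FPKM to sham was 10.4 on day 7 and 11.3 on day 14. On the log2(FPKM + 1) scale, where a gene below 1 FPKM moves less, the difference was 1.60 ± 0.28 (SE) on day 7 (adjusted p = 0.00201) and 1.70 ± 0.26 on day 14 (adjusted p = 0.0015). Ciita thus missed the limit of 0.001 on both days, and over the alternatives its adjusted p ranged from 1.98e-07 to 0.0133 on day 7 and from 1.27e-05 to 0.00783 on day 14. At an adjusted p of at most 0.05, with the same limit on the fold change, 9 of the 10 genes were higher on day 7 and 9 on day 14, against 3.93% and 2.58% of all genes tested.

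**Figure D2:**
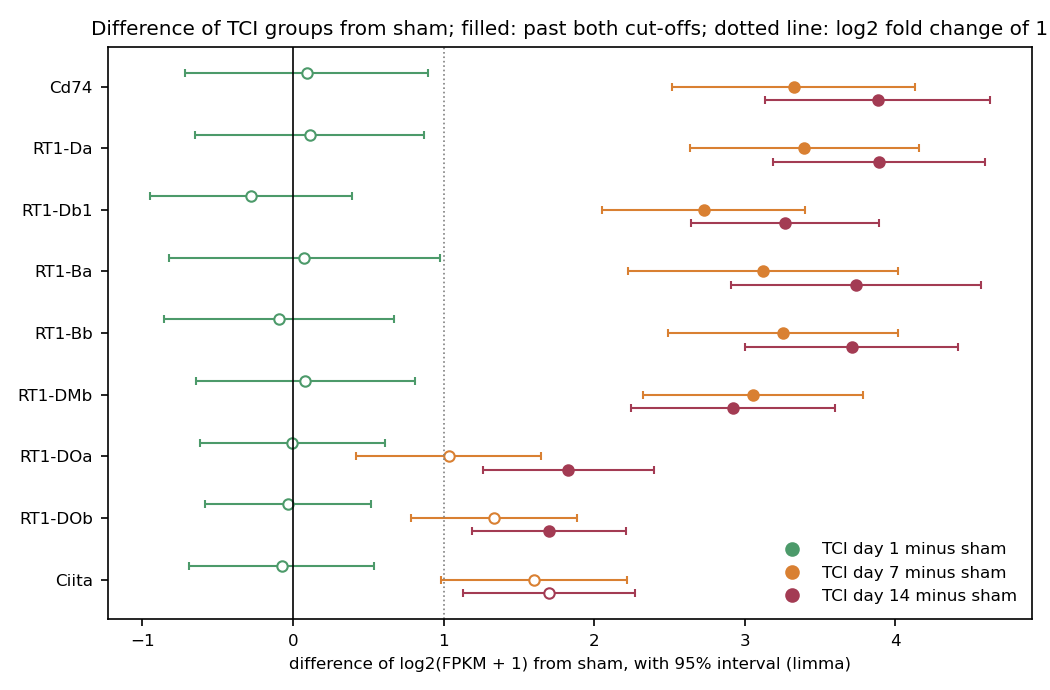
Points are the difference of log2(FPKM + 1) of each TCI group from sham in limma over 14 samples (x axis) for 9 of the genes (y axis), bars are 95% intervals, filled points passed both cut-offs, and RT1-DMa is not drawn. All day 1 intervals span 0, and the day 7 and day 14 points of Cd74, the classical chains and RT1-DMb lie between 2.73 and 3.89.

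The sequences before the genes were read to show the elements through which CIITA acts. RefSeq windows from 250 bases before to 50 after the gene start (assembly GRCr8) were available for 8 of the 10 genes. They come from the reference genome, not from these rats. The stretches below end 10 bases after the Y box, the NF-Y site ATTGG or its inverted form CCAAT, which is in capitals. The capitals before it mark letters of the X box, the site of RFX and CREB. These were searched as GNNAC, 3 bases of any kind and TG, and need not cover the whole X box.

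RT1-Da: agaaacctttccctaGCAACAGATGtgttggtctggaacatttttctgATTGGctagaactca
RT1-Db1: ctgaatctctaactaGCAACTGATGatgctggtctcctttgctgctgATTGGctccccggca
RT1-Ba: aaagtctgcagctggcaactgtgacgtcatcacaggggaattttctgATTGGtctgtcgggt
RT1-Bb: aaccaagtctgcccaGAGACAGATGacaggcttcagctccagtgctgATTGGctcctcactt
RT1-DMa: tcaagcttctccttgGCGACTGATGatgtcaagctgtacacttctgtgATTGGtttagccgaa
RT1-DOa: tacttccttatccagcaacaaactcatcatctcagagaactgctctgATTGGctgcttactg
RT1-DOb: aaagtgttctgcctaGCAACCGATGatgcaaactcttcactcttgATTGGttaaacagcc
Cd74: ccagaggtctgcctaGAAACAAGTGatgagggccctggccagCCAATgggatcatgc

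In GRCr8 the stretch of RT1-Da is chr20:4515318-4515380 on the plus strand, that of RT1-Db1 chr20:4560228-4560289 on the minus strand, and that of Cd74 chr18:56526975-56527031 on the plus strand. The Y box began 49 bases before the gene start in RT1-Da, 80 in RT1-Db1, 43 in RT1-Ba and 189 in Cd74. A Y box was found in 8 of the 8 windows, and the pair of X box letters and Y box, 10 to 30 bases apart on the gene's strand, in 6. RT1-Ba and RT1-DOa held no such pair. The stretch of each holds gcaac, which matches GNNAC, but TG does not follow it at the distance searched. The lack of a match therefore does not show that an X box is absent from these genes. Both passed the cut-offs on day 14, as did RT1-DOb and Cd74, which held the pair. RT1-DMa, listed at 0 in all sham samples, also held the pair and was not called on day 14. Over all 33469 RefSeq windows of this length, 37.5% held a Y box on either strand, 39.8% the X box letters, 0.867% the pair on the gene's strand and 1.79% the pair on either strand. The letters were chosen after these windows had been read, so the count of 6 describes them and tests nothing.

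On day 1, limma called none of the 10 genes. Their log2 differences from sham ranged from -0.28 (RT1-Db1) to 0.11 (RT1-Da) without RT1-DMa, and 0% of the genes tested were called. An unadjusted p under 0.05 was reached by 0 of the 10 genes and by 734 of the 14023 tested. In no class II gene did every day 1 sample exceed every sham sample, as happened in 5.01% of 14087 genes over the 16 samples. For Cd74 the 95% interval of the day 1 difference ran from -0.72 to 0.90, so a change within that range remains possible. A call needed a log2 fold change of at least 1 with an adjusted p of at most 0.001, and the smallest change that these samples could have shown was not estimated. The day 7 and day 14 samples were also compared with day 1. On day 7, 5 genes were higher than on day 1 (0.884% of the genes tested) and on day 14, 6 were (0.185%), and with all 16 samples 8 were on either day. Both counts fell to 0 without TCI day 1 replicate 3 or replicate 4. Without TCI day 1 replicate 1 they were 0 and 1, and without TCI day 7 replicate 1 or replicate 2 the first was 1. With only the groups compared in the fit, the count on day 14 was 0. Of the 9 genes without RT1-DMa, the median log2 difference from sham came to -0.00 for day 1, 3.05 for day 7 and 3.27 for day 14, beside medians of 0.00, 0.04 and 0.03 over all genes tested.

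Between day 7 and day 14 limma called none of the 10 genes, and 0% of the genes tested were called higher and 0.0143% lower. RT1-DOa had the largest difference, 0.79 ± 0.28 (SE, log2), with an unadjusted p of 0.0151 and an adjusted p of 0.357, and it alone had an unadjusted p under 0.05. The median difference of the 9 genes without RT1-DMa was 0.49 and the lowest -0.13, in RT1-DMb. The 95% interval of Cd74 was -0.25 to 1.36. TCI day 14 replicate 2 held the highest value of all 16 samples for 9 of the 10 genes. Without that sample, 6 genes were higher than sham on day 14, and the log2 difference of Cd74 was 3.56 (adjusted p = 1.43e-05).

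The levels of the members were compared with each other within each sample, as ratios of FPKM and with no test. Cd74 over the sum of the classical chains lay between 1.07 and 1.28 in sham, 1.09 and 1.41 on day 1, 1.14 and 1.32 on day 7, and 1.22 and 1.38 on day 14, so the groups overlapped in this ratio while the mean level of Cd74 was 10.02 and 15.4 times that of sham on days 7 and 14. DM over DO, with the 2 chains of each added up, had a median of 3.28 in sham (1.70 to 11.1), 4.44 on day 1 (3.20 to 5.02), 7.74 on day 7 (6.91 to 12.5) and 4.41 on day 14 (2.88 to 7.32). The day 7 ratios overlapped those of sham through sham replicate 4, where both DO chains were at their lowest, and those of day 14 through replicate 3, where RT1-DMa was at its highest. With RT1-DMb alone over DO, in view of the values of 0 in RT1-DMa, the ratio was 6.22 to 10.9 on day 7 and 2.88 to 4.93 on day 14, so that these groups no longer overlapped, while sham replicate 4 still stood at 11.1. Cd74 over the summed FPKM of 12 macrophage markers had a median of 0.875 in sham (0.607 to 1.20), 0.832 on day 1 (0.741 to 1.01) and 0.930 on day 7 (0.751 to 1.64), and 2.18 on day 14 (1.83 to 2.40). All day 14 samples were therefore above all others in this ratio. Among the 10 genes, 3 (Cd74, RT1-Ba and RT1-DOa) had a ratio to the macrophage markers that was higher in every day 14 sample than in every day 7 sample, as had 0.305% of all genes.

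**Figure D3:**
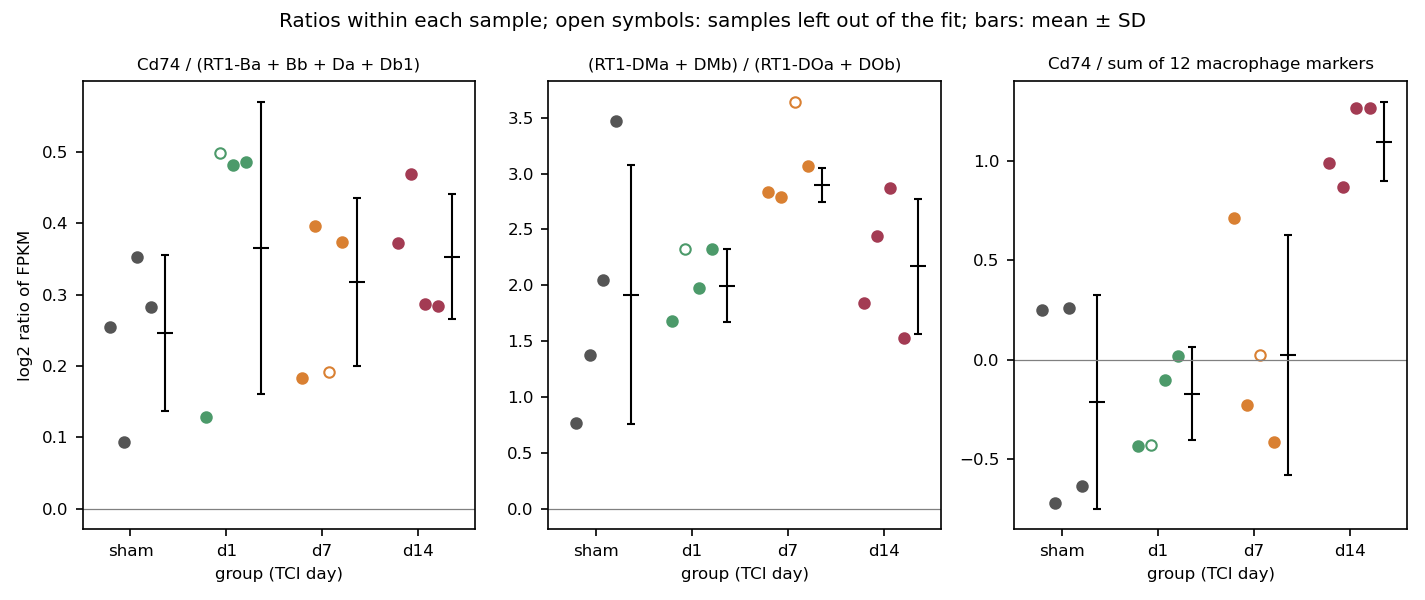
The 3 panels plot log2 ratios of FPKM within each sample by group, for Cd74 over the classical chains, DM over DO, and Cd74 over 12 macrophage markers; open points are the left-out samples and bars the mean ± SD of the others. In the right panel the 4 day 14 samples, at ratios of 1.83 to 2.40, lie above the samples of all other groups.

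The macrophage markers rose with the pathway. Their summed level lay between 35.4 and 63.0 FPKM in sham, 46.0 and 60.0 on day 1, 375 and 502 on day 7, and 189 and 679 on day 14. Of the 12 markers, 9 were called higher on day 7 and 6 on day 14, against 1.83% and 0.642% of all genes tested. Their median log2 differences from sham were 2.22 and 1.80. With all 16 samples 11 and 6 were called. The first count was 3 without TCI day 7 replicate 1 or replicate 2, and the second 0 without sham replicate 1, 2 or 3 and 0 with only the 2 groups in the fit. From day 7 to day 14 their median log2 difference was -0.57, and that of the class II genes without RT1-DMa was 0.49. The 12 markers include Cd68, a lysosomal protein of macrophages (1.70 to 2.53 FPKM in sham, 18.1 to 31.9 on day 7 and 10.7 to 40.8 on day 14) and C1qa, a chain of complement C1q (5.85 to 12.5, 84.0 to 118 and 41.9 to 175 FPKM). Other markers of the list moved less. In limma, Mrc1 had a log2 difference of 1.68 on day 7 (adjusted p = 0.00146) and 0.81 on day 14 (adjusted p = 0.0572). Cd163, the lowest of the 12 on both days, had 1.28 (adjusted p = 0.0203) and 0.57 (adjusted p = 0.254). The part of macrophage number in the rise of the class II genes was not tested.

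Other cells that can carry class II were examined with marker lists. The 6 B cell markers summed to 0.34 to 0.76 FPKM in sham, 0.66 to 1.16 on day 7 and 0.34 to 0.95 on day 14, and none of them passed the filter on low values. Ms4a1, the gene of CD20, was at most 0.16 FPKM in any sample. Of the 6 dendritic cell markers, 3 could be tested and none was called on either day (1 at the looser limit of 0.05). Itgax, which macrophages also express, was at 0.12 to 0.32 FPKM in sham, 1.68 to 2.82 on day 7 and 1.15 to 7.64 on day 14, Flt3 was at 4.98 to 8.74 FPKM in all samples, and Xcr1 at no more than 0.72. Flt3 had a log2 difference from sham in limma of -0.19 on day 7 (adjusted p = 0.0355) and -0.13 on day 14 (adjusted p = 0.116). Zbtb46, the third marker tested, had 0.14 and 0.12. The 7 T cell markers, most of them near 0 before, summed to between 0.59 and 1.5 FPKM in sham, 14.0 to 65.5 on day 7 and 16.2 to 59.8 on day 14. Of the 6 tested, 6 were called on day 7 and 3 on day 14, against 1.83% and 0.642% of all genes tested. Their sum was at most 1.67 FPKM on day 1, so they passed the filter mainly through day 7 and day 14 samples. The counts of T cell markers therefore lean toward higher values by selection. Those counts were 1 and 0 without sham replicate 1 or replicate 2, 5 and 1 with all 16 samples, and 5 and 0 with only the 2 groups compared. Their part in the class II levels was not tested. Of the markers of sensory neurons, glia, endothelium and skeletal muscle, 0 were called on day 7 or day 14 at either limit. Both limits require a log2 fold change of at least 1, so smaller differences went uncalled. The median log2 difference from sham was -0.21 on day 7 and -0.15 on day 14 for neuronal markers. For glia it was -0.27 on both days, and for endothelium 0.26 and 0.10. In limma, Kcnj10 of glia had -0.97 on day 14 (adjusted p = 0.0042). On day 7 Nefh of neurons had -0.30 (adjusted p = 0.0042) and Cdh5 of endothelium 0.83 (adjusted p = 0.010).

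**Figure D4:**
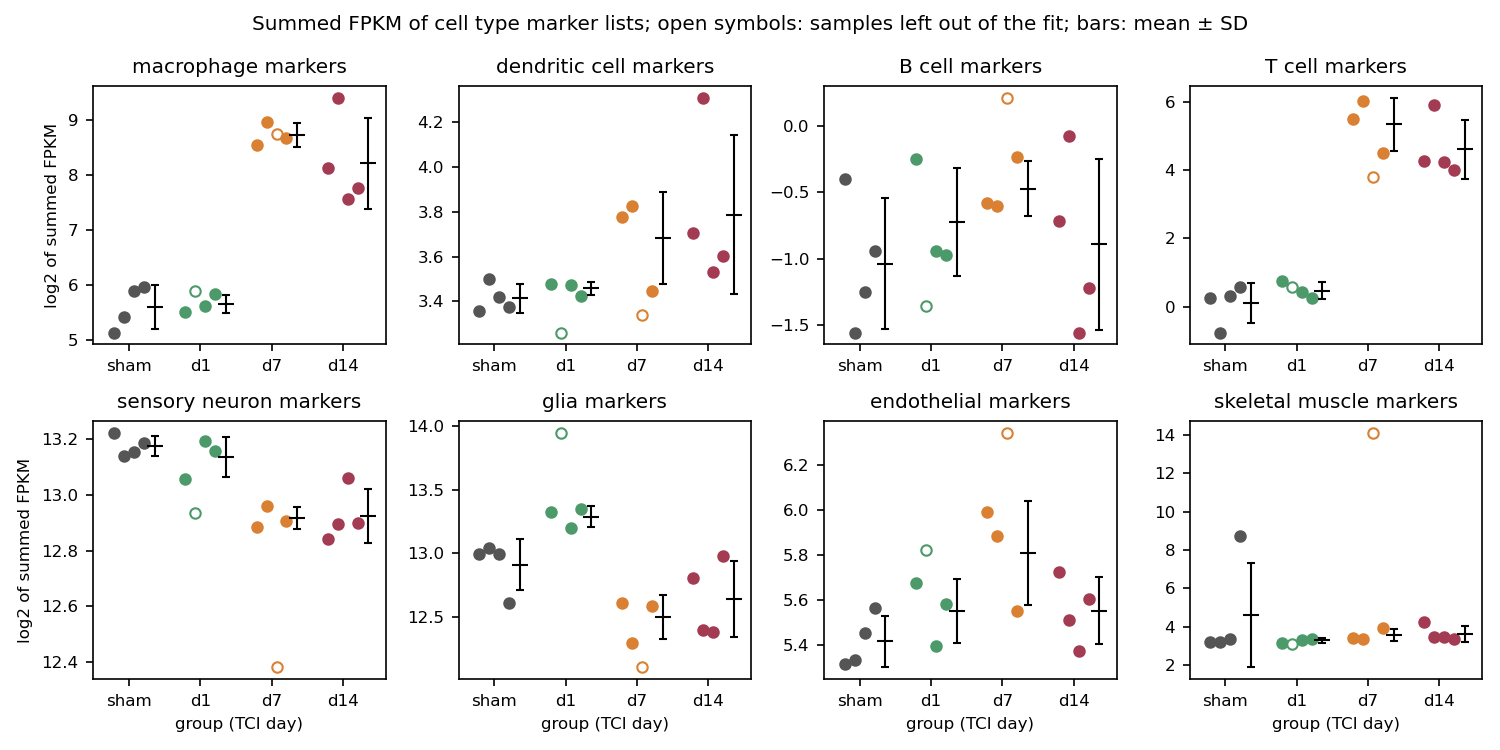
Each panel plots the log2 of the summed FPKM of 1 list of cell type markers in the 16 samples by group; open points are the left-out samples and bars the mean ± SD of the others. Macrophage and T cell sums stand higher on days 7 and 14 than in sham, B cell sums stay at no more than 1.16 FPKM, and the open day 7 point in the muscle panel is replicate 3 at 17725 FPKM.

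Beyond these 10 genes, the class II route was followed in 32 genes of 7 lists, of which 29 passed the filter. On day 7, 5 of the 29 were called higher (RT1-Db2, Ifi30, Ctss, Cd4 and Lag3), against 1.83% of all genes tested. On day 14, 3 were (RT1-Db2, Ctss and Cd4), against 0.642%, with 0 lower on either day. At the looser limit 9 and 8 were higher, against 3.93% and 2.58%. Lag3 and Marchf1 lay below 1 FPKM in every sham sample and passed the filter mainly through day 7 and day 14 samples. The counts of this list therefore lean toward higher values by selection. With all 16 samples 7 and 3 were called. The count on day 7 was 0 without TCI day 7 replicate 2 and 10 without TCI day 14 replicate 2, and that on day 14 was 0 without sham replicate 1, 2 or 4 and 0 with only the 2 groups in the fit. Their median log2 difference, without Rfxap, was 0.41 on day 7 and 0.30 on day 14, against 3.05 and 3.27 for the class II genes themselves. RT1-Db2, a second RT1-D β chain gene, was at 0.94 to 2.45 FPKM in sham, 7.45 to 18.5 on day 7 and 12.4 to 24.7 on day 14. It is a close relative of RT1-Db1, and how reads shared by the pair were assigned was not tested.

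In endosomal processing, the 2 genes past both cut-offs were Ctss and Ifi30. Ctss encodes cathepsin S, the protease that trims the invariant chain in antigen-presenting cells, and was at 5.0 to 11.5 FPKM in sham, 48.0 to 64.9 on day 7 and 27.4 to 74.7 on day 14, with log2 differences of 2.67 ± 0.31 (SE, adjusted p = 0.000148) and 2.15 ± 0.28 (adjusted p = 0.000691). Ifi30 encodes GILT, which reduces disulfide bonds of antigens in lysosomes, and it rose by 1.92 ± 0.25 on day 7 (adjusted p = 0.000285), with 1.43 ± 0.23 on day 14 (adjusted p = 0.00181). The other lysosomal proteases Ctsl, Ctsb, Ctsd, Ctsh, Ctsf and Lgmn, which most cells use, had differences between 0.05 and 0.62 on day 7 and none reached the fold cut-off. The largest was that of Ctsh on day 7 (0.62, adjusted p = 0.0291), and Ctsb had 0.29 on day 14 (adjusted p = 0.0249). Marchf1, the ubiquitin ligase that removes class II from the surface, was at 0.24 to 0.53 FPKM in sham and 1.64 to 2.87 on day 7, with a log2 difference of 1.15 ± 0.25 (adjusted p = 0.0066) that passed only the looser limit, and Marchf8 had -0.01.

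The factors that bind the class II promoters had small differences from sham. Rfx5, the DNA-binding subunit of RFX, had a log2 difference of 0.49 ± 0.10 (SE) on day 7 (adjusted p = 0.00408) and 0.31 ± 0.09 on day 14 (adjusted p = 0.0362). Rfxank, Nfya, Nfyb, Nfyc and Creb1 had differences from -0.08 to 0.13 on day 7 and from -0.45 to 0.06 on day 14, and none of them was called. Ifng encodes interferon gamma, the main inducer of Ciita outside antigen-presenting cells. It was listed at 0 in all sham and day 1 samples and at 0.41, 0.64, 0.15 and 0.08 FPKM on day 7 and 0.08, 0.98, 0.08 and 0.17 FPKM on day 14, below the filter. Irf1, a transcription factor induced by interferon gamma, was at 3.37 to 4.41 FPKM in sham, 21.3 to 52.1 on day 7 and 10.6 to 65.7 on day 14. It did not overlap with sham, yet passed only the looser limit, with a log2 difference of 2.25 (adjusted p = 0.00348) on day 7.

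Among the receptors of class II, Cd4 was at 4.49 to 7.23 FPKM in sham, 12.9 to 27.4 on day 7 and 14.6 to 39.0 on day 14 and was called on both days, with log2 differences of 1.81 ± 0.26 (SE, adjusted p = 0.000496) and 1.87 ± 0.24 (adjusted p = 0.000602). In rats Cd4 is carried by macrophages as well as by T cells. Lag3, an inhibitory receptor of T cells that binds class II, was at 0.39 to 0.62 FPKM in sham, 3.54 to 12.7 on day 7 and 1.95 to 10.3 on day 14, and was called on day 7 alone (2.75 ± 0.36, adjusted p = 0.000296), with 1.70 ± 0.33 and an adjusted p of 0.00525 on day 14. The costimulatory gene Cd86 was higher by 1.03 on day 7 (adjusted p = 0.0367) and 1.09 on day 14 (adjusted p = 0.0236) at the looser limit.

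**Figure D5:**
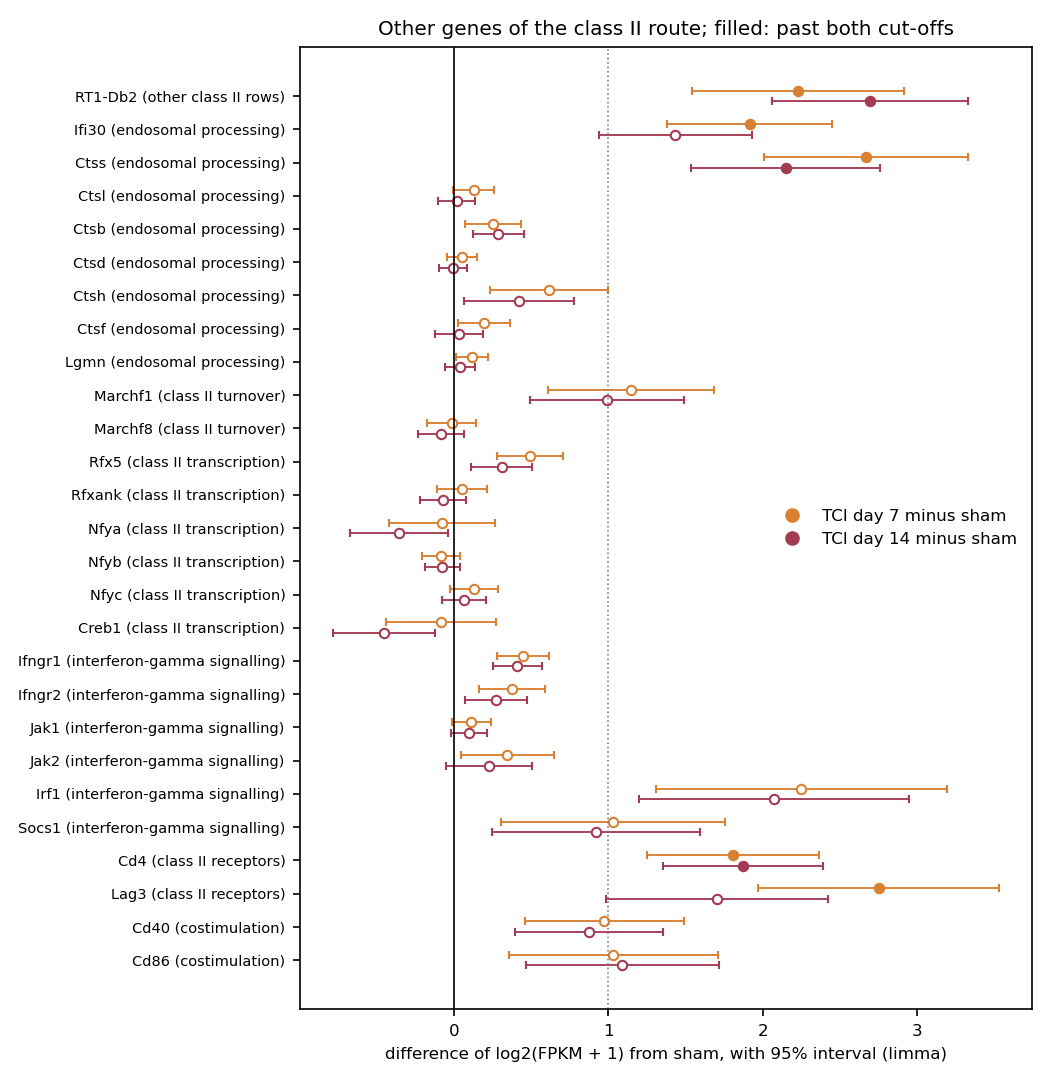
Points are differences of log2(FPKM + 1) from sham on TCI day 7 and day 14 (x axis) in limma over 14 samples for 27 other genes of the class II route, with the list of each gene in parentheses on the y axis; bars are 95% intervals and filled points passed both cut-offs. RT1-Db2, Ctss and Cd4 are filled on both days, Ifi30 and Lag3 on day 7 alone, and the promoter-binding factors lie between -0.45 and 0.49.

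The route of MHC class I was set beside it. Of 8 genes of that route, B2m, Tap1, Tap2, Psmb8 and Psmb9 were called higher on day 7, and all of these but Tap2 on day 14. Of all genes tested, 1.83% and 0.642% were called higher on these days. Without sham replicate 1 or replicate 2 the counts were 0 and 1, with all 16 samples 6 and 4, and with only the 2 groups compared in the fit 8 and 0. Psmb8 and Psmb9, subunits of the immunoproteasome, had the largest differences, 2.99 and 3.04 on day 7, and the median of the 8 was 1.81 on both days. Psmb9 was at 3.15 to 5.41 FPKM in sham, 36.7 to 83.6 on day 7 and 24.5 to 99.4 on day 14, without overlap. Nlrc5, the class I counterpart of CIITA, had a log2 difference of 1.36 on day 7 (adjusted p = 0.0045) and 1.55 on day 14 (adjusted p = 0.00215), and like Ciita it passed only the looser limit. The difference between the routes was not tested.

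The genes whose pattern was most like that of Cd74 were ranked by their correlation with it (Pearson's r, log2(FPKM + 1), n = 14 samples), a description of samples from 4 groups that share the step between day 1 and day 7. The first 3 places were held by RT1-Da (r of 0.999), RT1-Bb (0.997) and RT1-Ba (0.995). The r of the other members was 0.984 for RT1-DMb, 0.978 for RT1-Db1, 0.961 for RT1-DOb, 0.960 for Ciita, 0.906 for RT1-DOa and 0.653 for RT1-DMa. Among the other 14022 genes, RT1-DMb was in place 5, RT1-Db1 in place 9, RT1-DOb in place 36, Ciita in place 38, RT1-DOa in place 351 and RT1-DMa in place 2511. The 10 genes other than the members with the highest r were Card9 (0.987), RT1-CE3, RT1-CE5, LOC103690108, Clec7a, RT1-Db2, Cxcl9, RT1-CE2, RT1-CE10 and Cd4 (0.973), of which RT1-Db2 and Cd4 belong to the class II route lists above. They include class I genes of the RT1-CE region, the fungal receptor Clec7a with its adaptor Card9, and Cxcl9, a chemokine induced by interferon gamma. Cxcl9 was at 1.37 to 4.55 FPKM in sham, 31.3 to 118 on day 7 and 23.6 to 199 on day 14. Card9 was low, at 0.7 to 1.15 FPKM in sham, 1.6 to 2.11 on day 7 and 1.81 to 2.31 on day 14. Its log2 differences from sham, 0.55 on day 7 and 0.64 on day 14, did not reach the fold cut-off. Clec7a was at 0.32 to 0.74 FPKM in sham, 2.56 to 7.36 on day 7 and 4.11 to 10.3 on day 14. Of the macrophage markers, C1qc came closest, with an r of 0.955 in place 49. Cd163 was the furthest of them, with an r of 0.621 in place 2775. Reads of the RT1-CE genes can be shared between these close copies, so their separate values are uncertain.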

How the data were processed

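Total RNA of L3-L5 DRG was sequenced in 16 samples. The authors filtered the reads for quality, mapped them with HISAT and Bowtie2, estimated expression with RSEM and deposited FPKM per gene, 1 table per sample. The submitters' processing notes name CASAVA 1.4 and Bowtie2, and the genome build and annotation are not given in the sources used here. The deposited FPKM were taken as log2(FPKM + 1). A gene entered the fit when 3 or more of the 14 samples reached 1 FPKM, and groups taken from the sample labels were compared with limma 3.58.1 (R 4.3.3) with an intensity trend. The test on read counts that the design also foresaw was not run because FPKM are not counts. The procedure was tested on simulated data. The rule for named genes took all members, the genes of the listed routes and markers, and the 10 genes most like Cd74. Some genes of these lists are counted with their list and not reported singly here. Members and lists were chosen with earlier results of these data known. Alternatives were the 16 samples, the 2 groups compared alone, no trend, quantile normalization, a pseudocount of 0.1, no filter, a filter on a mean of 5 FPKM, a block for the sample number, other limits, array quality weights and each sample left out. The weights with all 16 samples, the ratio of RT1-DMb alone to DO, and all alternatives for lists other than the members, were added after seeing the data. Identical values made up no more than 2.78% between any pair of samples, and each was counted once. Sample numbers recur between groups but mark different rats.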

Additional observations from a re-analysis of the deposited data

Results flagged for a closer look

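Single samples far from the other samples of their group were looked for with Dixon's test at the 95% level, in 51 sets of 4 samples (the 10 genes and 3 ratios by group, without sets in which all values were 0), and 7 were found. Chance marks about 1 in 20 such sets, and the genes are not independent of each other. TCI day 14 replicate 2 was marked for 5 genes, at 206.99 FPKM for RT1-Ba, 399.1 FPKM for RT1-Da, 181.99 FPKM for RT1-Db1, 60.13 FPKM for RT1-DMb and 1241 FPKM for Cd74. In that sample the macrophage markers summed to 679 FPKM and the T cell markers to 59.8 FPKM, against at most 281 and 19.4 FPKM in the other day 14 samples, and the part of these cells in its class II levels was not tested. TCI day 1 replicate 2, a sample left out by the study, was marked for RT1-DMa at 3.50 FPKM, beside 3 samples listed at 0. TCI day 1 replicate 1 was marked for Cd74 over the classical chains, at 1.094 against 1.396 to 1.412 in the other day 1 samples.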

How the results depend on the processing

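No member was called on day 1, or between day 14 and day 7, under any alternative run. On day 7 the count of 6 was within 1.5 times under every alternative but the samples left out in turn (3 to 7, lowest without TCI day 7 replicate 1). On day 14 the count of 8 fell to 1 with only the 2 groups in the fit and to 3 with the replicate block, and was 4 to 9 with 1 sample left out. Against day 1, the count of 5 on day 7 was 8 with all 16 samples, with array quality weights, or with both, 9 at an adjusted p of at most 0.05, 0 with the replicate block and 0 to 7 with 1 sample left out, and the count of 6 on day 14 was 0 with only the 2 groups, 0 with the replicate block and 0 to 7 with 1 sample left out. Same-numbered samples come from different rats, and the correlations of their deviations ran from -0.10 to 0.27, with 4 of 18 over 0.1. Those of differently numbered samples ran from -0.33 to 0.41, so the same-numbered pairs did not stand out. Whether the numbers follow a processing batch cannot be told from the labels. Over all genes, the calls on day 7 numbered 257, and 112 with the block, 123 at a mean of at least 5 FPKM, 164 without the filter and 577 with array quality weights. Those on day 14 numbered 90, and 4 with only the 2 groups, 19 with the block, 31 without the filter and 228 with array quality weights. With the block, the class I genes called were 1 on day 7 and 0 on day 14, and the other route genes 2 and 0. The cause was not tested.

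Some small differences that were not called changed sign. For day 1 minus sham these were RT1-DOa with all 16 samples (0.060), with a pseudocount of 0.1 (0.038), with the replicate block (0.16) and with all 16 samples and weights (0.0019), RT1-DOb with all 16 samples (0.016) and a pseudocount of 0.1 (0.00049), and Ciita with the replicate block (0.033). With 1 sample left out, the ranges were -0.18 to 0.36 for RT1-Ba, -0.31 to 0.12 for RT1-Bb, -0.10 to 0.33 for RT1-Da, -0.066 to 0.26 for RT1-DMb, -0.086 to 0.080 for RT1-DOa, -0.14 to 0.064 for RT1-DOb and -0.13 to 0.34 for Cd74. For day 14 minus day 7, Ciita was at -0.16 with array quality weights, -0.17 with weights and all 16 samples and -0.26 to 0.34 with 1 sample left out, and RT1-DMb at -0.46 to 0.036. No fold change of RT1-DMa was recomputed, since it was listed at 0 in all sham samples. With 1 FPKM added to both terms, the median log2 of DM over DO on day 1 was 1.36. With RT1-DMb alone over DO it was 1.83. The median log2 over the macrophage markers then became -3.64 for RT1-Bb on day 1, -3.66 in sham and -3.65 on day 1 for RT1-DMb, -5.17, -5.12 and -5.77 in sham, on day 1 and on day 14 for RT1-DOa, -5.05 in sham and -5.25 on day 1 for RT1-DOb, and -5.26, -5.43 and -6.04 in sham, on day 1 and on day 14 for Ciita. Depth is not given in the tables, and values below 1 FPKM rest on few fragments.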

Other observations

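The balance between the 2 chains of each classical molecule was looked at after the values had been seen, as a ratio of FPKM and with no test. RT1-Da over RT1-Db1 ranged between 0.856 and 1.68 in sham, between 1.10 and 2.12 on day 1, between 1.63 and 2.49 on day 7, and between 1.54 and 2.19 on day 14. The α chain of RT1-D was thus above its β chain in every TCI sample, and the sham range overlapped that of each day. RT1-Ba over RT1-Bb was between 1.54 and 2.01 in sham, between 1.41 and 2.75 on day 1, between 1.18 and 2.01 on day 7, and between 1.45 and 1.91 on day 14, so the α chain of RT1-B was above its β chain in all 16 samples.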
